A study of Mus musculus with 29 samples.

Results

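The chemokine system was described here as 55 mouse genes: ligands and receptors that passed a low-count limit in at least 1 of the study's 2 count tables. Members were taken by symbol: every Ccl, Cxcl, Ccr, Cxcr or Ackr gene with a number, and Xcl1, Xcr1, Cx3cl1 and Cx3cr1. A gene was kept where at least 3 libraries of its table held at least 10 counts. Such symbols were carried by 62 of 24411 genes of the time course, of which 53 were kept, 33 ligands and 20 receptors. They were carried by 63 of 55487 IDs of the amputation set, of which 46 were kept, 30 ligands and 16 receptors, and 44 genes were kept in both tables.

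Chemokines are small secreted proteins that bind heptahelical receptors on leukocytes and other cells and steer their movement. Inflammatory chemokines such as Ccl2 and Cxcl1 are made in injured tissue and draw monocytes and neutrophils from the blood, whereas homeostatic ones such as Cxcl12, Cxcl14, Ccl19 and Ccl21 are made continuously and hold or place cells in marrow, skin and lymphatic tissue. Atypical receptors (Ackr1 to Ackr4) bind chemokines without the usual G protein signal and clear or transport them.

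Bulk poly(A) RNA was sequenced from mouse hindlimb digit tips, a tissue that regrows after amputation through the third phalanx. Spared nerve injury (SNI) cut 2 branches of the left sciatic nerve, the common peroneal and the tibial one, sham surgery exposed the nerve without cutting it, and digits were amputated 5 days after surgery. The time course had amputated digits of sham animals at 7 days (3 libraries), 14 days (3) and 21 days (2) after amputation, and amputated digits of SNI animals at the same days (3 libraries each). The amputation set was SNI throughout: digits with and without amputation at 7 and 14 days, 3 libraries each. The labels call the libraries biological replicates and give no strain, age or sex. The unamputated groups also carry a tag for days after amputation and the same tissue tag, regenerate digit, as the amputated ones, while their descriptions say non-regenerated. Their treatment label was followed here, and every amputation contrast rests on it.

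Total counts ran from 35654192 to 56809440 in the 17 time course libraries and from 31274245 to 43315729 in the 12 amputation libraries. Replicate 1 of sham day 21 and replicate 2 of SNI day 7 had scaling factors (TMM) of 0.633 and 0.761, and were the highest library for 15 (28.3%) and 16 (30.2%) of the 53 members, against 28.9% and 12.6% of the 16084 genes tested. SNI day 7 replicate 2 held a summed level of 12310 counts scaled to library size (CPM) of 7 neutrophil markers, against 7.78 to 247 in the other groups. Keratinocyte and fibroblast markers were high in every library and skeletal muscle markers were near 0. Keratinocyte sums (4 of 4 measured) were 40294 to 47716 CPM in SNI against 49672 to 57436 in sham at day 7 and 39014 to 55161 against 57244 to 63556 at day 14, without overlap.

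Levels between genes were compared as CPM per kilobase of merged exon. The skin chemokine Cxcl14 was highest in both tables, at a mean of 182 CPM per kb in the time course and 159 in the amputation set. Cxcl12 followed in the time course at 47.4, then Ccl6 at 34.4, Ccl8 at 28.7 and Ackr3 at 23.3. That order does not rank Ccl21. Ccl21a held 0 counts in all 17 time course libraries, and no exon length was available for the copy Ccl21c. The Ccl21 copies, given below, together held 224 to 1549 counts per library. The place of Ccl21 therefore cannot be compared between the tables. In the amputation set Ccl21a at 35.9 and Cxcl12 at 30.9 came next, ahead of Ackr3 at 18.1 and Ccl6 at 17.3. These are homeostatic ligands, the Cxcl12-clearing receptor Ackr3 and CC ligands of the inflammatory group.

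Regenerating SNI digits at day 14 held higher levels of most chemokines and receptors than sham digits, but no single member passed the test. With edgeR's quasi-likelihood test and Benjamini-Hochberg adjustment over 16084 genes, 0 of 53 members were called at an adjusted p under 0.05 at day 7, 14 or 21, in the mean of the 3 days or in the SNI by day interaction (background 0.0% in each). At day 14 the fold change was positive for 49 of 53 members with a median of 1.29 (log2, SNI minus sham), against 0.03 over all genes tested. The 3 SNI libraries lay above the 3 sham libraries for 23 members (43.4%; background 11.0%) and below them for none. Without SNI day 14 replicate 3, the highest library for 12 members (22.6%, against 3.75% of all genes), the day 14 median was 0.69.

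At day 7 the median was 0.64 over the members and 0.02 over all genes, with 42 positive and 10 (18.9%; background 13.7%) whose libraries did not overlap: Ackr4, Ccl27a, Ccl3, Ccl6, Ccr2, Cx3cr1, Cxcl12, Cxcl13, Cxcr4 and Cxcr6. At day 21 the median was 0.03, with 28 positive, 5 members (9.43%; background 4.36%) separated upward and 2 (3.77%; background 3.3%) downward, Cxcl3 among them. That day rests on 2 unlike sham libraries: the median was 0.82, with 43 positive, without sham replicate 1 and -0.34 without sham replicate 2. It was 0.08, -0.16 and -0.01 without SNI day 21 replicate 1, 2 and 3. Cx3cr1 and Cxcl13 were the 2 members whose SNI libraries lay above the sham libraries on every day (3.77%; background 0.137%). The mean over the 3 days was positive for 47 members with a median of 0.65, and 1.07 without sham day 21 replicate 1.

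At an unadjusted p under 0.05 edgeR counted 15 members at day 7 (background 13.6%), 25 at day 14 (5.93%), 2 at day 21 (2.2%), 23 in the mean of the days (14.0%) and 8 in the interaction (3.66%). The only member counted as lower at day 7, at day 14 and in the mean was the gene copy Ccl21c. The summed Ccl21 copies, given below, were higher in SNI. The share of all genes at this threshold was not counted in fits with 1 library left out, here or below. The counts from such fits therefore cannot be told from a shift in all genes. The day 14 count was 14 without SNI day 14 replicate 3, and the day 7 count was 3 without SNI day 7 replicate 2, 7 without sham day 7 replicate 1 and 9 without sham day 7 replicate 3. The mean of the days gave 35 without sham day 21 replicate 1. At day 21 it was 14 when sham replicate 2 and 4 when sham replicate 1 of that day was left out, and 1 when sham day 7 replicate 1, replicate 1 of SNI day 14 or replicate 3 of SNI day 21 was left out. The interaction gave 9 calls (background in that fit 20.6%) and 21 members at an unadjusted p under 0.05 without sham day 21 replicate 2, which leaves that group with 1 library assumed to vary like the others. Its unadjusted count fell to 3 without sham day 14 replicate 1 or 3, 4 without the second sham library of day 14, replicate 3 of SNI day 14 or replicate 1 of SNI day 21, and 5 without sham day 7 replicate 3, and was 13 without SNI day 7 replicate 1. DESeq2 called 2 members at day 7 (0.336% of all genes), 11 at day 14 (0.417%), 0 at day 21 (0.0746%), 7 in the mean (1.01%) and 0 in the interaction (0.0187%). Its day 14 calls were Ccl7, Ccl8, Ccl9, Ccl12, Ccl19, Cxcl1, Cxcl5, Cxcl12, Ccr1 and Ccr3, all higher in SNI, and the gene copy Ccl21c, lower.

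**Figure D1:**
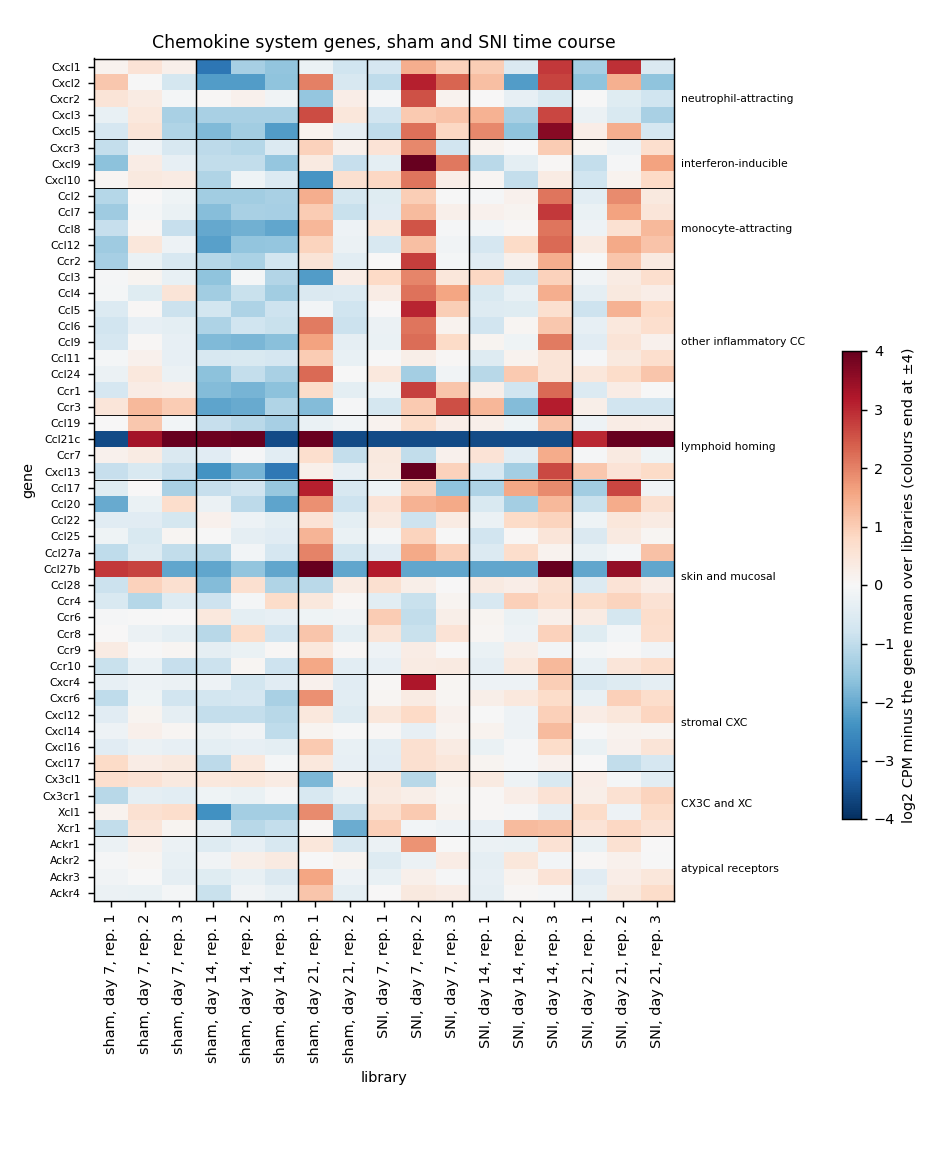
Each row is a member of the time course (52 of 53 shown), each column 1 of the 17 libraries, and colour is log2 CPM minus the gene's mean over libraries, ordered by role. The 3 sham day 14 columns are blue for most inflammatory ligands, and single libraries (SNI day 7 replicate 2, SNI day 14 replicate 3, sham day 21 replicate 1) hold the darkest red.

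The low point of the system was the sham digit at day 14. That group had the lowest mean for 40 of 53 members (75.5%, against 32% of all genes tested). From day 7 to day 14 in sham digits the median was -0.62 (log2, -0.01 over all genes; -0.39 without sham day 7 replicate 2), and 19 members (35.8%; background 9.39%) had all day 14 libraries below all day 7 libraries. This comparison and SNI against sham at day 14 share the sham day 14 libraries.

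edgeR called 0 members between days in either arm (adjusted p, background 0.0% in each). At an unadjusted p under 0.05 it counted 7 members for sham day 14 against day 7 (background 1.96%), 8 for sham day 21 against day 7 (20.3%), 5 for SNI day 14 against day 7 (3.03%) and 8 for SNI day 21 against day 7 (3.87%). DESeq2 called 0, 0, 0 and 1, the last being Ccl21c (0.0187%, 0.255%, 0.00622% and 0.056% of all genes). The sham day 14 count was 3 without sham day 14 replicate 3, and 4 without sham day 14 replicate 1, sham day 7 replicate 2 or sham day 7 replicate 3. The sham day 21 count was 2 without sham day 21 replicate 1 or sham day 7 replicate 3, 3 without sham day 7 replicate 1, and 5 without sham day 7 replicate 2 or sham day 14 replicate 2. Without sham day 21 replicate 2 it was 18, with 14 calls, in a fit that called 50.7% of all genes. Both SNI counts were 1 without SNI day 7 replicate 2. The SNI day 14 count was 3 without SNI day 14 replicate 1, and the SNI day 21 count 5 without SNI day 21 replicate 3.

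In SNI digits, Cxcl12, Ccl19, Cx3cr1, Ccl21a and Ccl8 were called higher and Cxcr2 lower with amputation. These are the 6 of 46 members called in the mean of the 2 days by edgeR (adjusted p under 0.05 over 17475 genes): 5 higher, against a background of 5.71% of genes higher, and 1 lower, background 6.08%. The share of members called in either direction is close to the 11.8% of all genes. The Cxcl12, Ccl19, Cx3cr1 and Ccl21a calls in the mean held with each library left out. The Ccl8 call was lost in 5 and the Cxcr2 call in all of the 12 such fits. At day 7, 3 members were called, all higher (background 0.601% higher, 1.35% either way): Cxcl12, Ccl19 and Ccl21a. At day 14, 2 were, both higher (background 1.32% higher, 1.44% lower, 2.75% either way): Cxcl12 and Cx3cr1. The median log2 fold change was 0.31 in the mean, 0.41 at day 7 and 0.19 at day 14, with 35, 33 and 32 of 46 positive, against 0.01, 0.00 and 0.01 over all genes. Marker sums of other cell types separated the same groups. Keratinocyte markers summed to 41413 to 45079 CPM in amputated against 60937 to 71285 in unamputated digits at day 7, and to 47969 to 51559 against 54999 to 57145 at day 14. Osteoclast markers summed to 248 to 1092 against 94.5 to 223 CPM at day 7, and to 211 to 294 against 99.0 to 120 at day 14. Their part in these results was not tested.

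Amputated libraries lay above unamputated ones for 11 members at day 7 (23.9%; background 10.4%), for 5 at day 14 (10.9%; background 15.9%), and on both days for Ccl19 and Cxcl12 (background 4.29%). Cxcr2 was separated downward on both days (background 3.42%). At day 7 the median was 0.21 without amputated day 7 replicate 1, the highest library for 17 of 46 members (37.0%, against 11.6% of all genes), and 0.68 without unamputated day 7 replicate 3. At day 14 it was 0.10 without amputated replicate 2, 0.11 without unamputated replicate 3 and 0.45 without unamputated replicate 2. The day 7 calls went from 3 to 1, Cxcl12, without unamputated day 7 replicate 1 or amputated day 7 replicate 1. The day 14 calls went to 0 or 1 without each of 9 of the 12 libraries, given with the genes below. At an unadjusted p under 0.05 there were 15 members in the mean (background 29.5%), 14 at day 7 (15.1%) and 6 at day 14 (24.0%). The mean and day 7 counts, and the 11 members separated at day 7, hold both Ccl21a and its near-identical copy Ccl21b. The day 7 count was 9 without unamputated day 7 replicate 1 or 2 and 8 without amputated day 7 replicate 1, and the day 14 count 2 and 10 without unamputated day 14 replicate 1 and 2.

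The interaction of amputation with day called 0 members in edgeR (background 0.0%), with 4 at an unadjusted p under 0.05 (background 6.25%), 7 without amputated day 7 replicate 3. Between days, 0 members were called in amputated digits (background 0.607%) and 0 in unamputated digits (background 0.303%), with 5 (background 13.3%) and 4 (background 4.97%) at an unadjusted p under 0.05. The 5 became 2 without amputated day 14 replicate 1, 3 without amputated day 14 replicate 2 or 3 or amputated day 7 replicate 1, and 8 without amputated day 7 replicate 3. DESeq2 called 1, 0 and 1 (0.103%, 2.71% and 0.853% of all genes), and both were the gene copy Ccl21b.

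**Figure D2:**
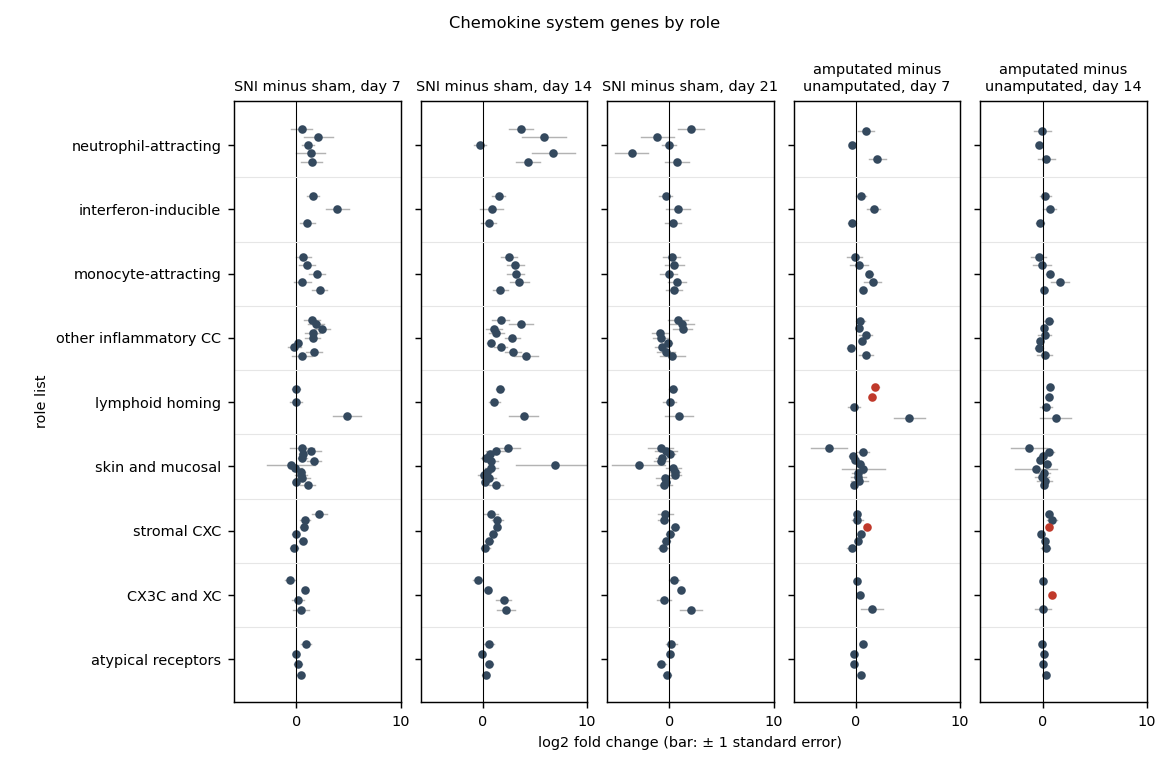
Each point is the fitted log2 fold change of 1 member and its bar 1 standard error, by role and comparison; red marks edgeR calls, and Ccl21b, Ccl21c and 1 receptor are left out. SNI minus sham at day 14 after amputation is shifted right of 0 in most roles without a call, while the called points in the amputation set are few and small.

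Cxcl12 rose with amputation in SNI digits on both days. It is the ligand of Cxcr4, made by stromal cells, and Ackr3 takes it up. In unamputated SNI digits Cxcl12 was at 159, 179 and 162 CPM at day 7 and 236, 156 and 182 at day 14. In amputated SNI digits it was at 416, 347 and 288 CPM at day 7 and 288, 313 and 309 at day 14. All 6 amputated libraries lay above all 6 unamputated ones. The gene rose by 0.87 ± 0.10 (log2, SE; edgeR adjusted p = 0.00106) in the mean of the days, by 1.07 ± 0.15 at day 7 (adjusted p = 0.00599) and by 0.66 ± 0.15 at day 14 (adjusted p = 0.0413). The mean and day 7 calls held with each library left out. The day 14 call was lost without unamputated day 14 replicates 2 or 3, unamputated day 7 replicates 1 or 2, amputated day 14 replicates 1, 2 or 3, or amputated day 7 replicate 2, with a fold change of 0.54 to 0.84. Endothelial markers (Pecam1, Cdh5, Tie1, Kdr; 4 of 4 measured) summed to 158 to 185 CPM in amputated day 7 digits and 96.9 to 141 in unamputated ones, and at day 14 to 122 to 163 and 106 to 130. In the time course they summed to 70.5 to 144 CPM in SNI against 133 to 183 in sham at day 7, 96.5 to 190 against 152 to 168 at day 14 and 66.4 to 156 against 40.1 to 145 at day 21, overlapping on each day. Fibroblast markers (Pdgfra, Col1a1, Col1a2 and Dcn, all measured) overlapped on both days of the amputation set. They summed to 2713 to 4845 CPM in amputated against 2503 to 4180 in unamputated digits at day 7. At day 14 they summed to 3511 to 14500 against 2863 to 3778 CPM. Between sham and SNI they overlapped on each day. The part of these cells in the result was not tested. In bulk tissue, fewer cells of a type and less RNA per cell cannot be told apart.

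In the time course Cxcl12 was at 259, 381 and 279 CPM in sham digits at day 7, 182, 183 and 165 at day 14 and 476 and 249.7 at day 21. In SNI digits it was at 481, 614 and 398 CPM at day 7, 350.1, 310.0 and 688 at day 14 and 439.6, 489.8 and 639.9 at day 21. SNI libraries were all higher at days 7 and 14 and overlapped sham at day 21. The log2 fold change was 0.70 ± 0.32 (SE) at day 7, 1.35 ± 0.33 at day 14 and 0.53 ± 0.36 at day 21, and in the mean 0.86 ± 0.20, which was not called (edgeR adjusted p = 0.307; DESeq2 adjusted p = 0.0114). The day 21 value was 1.07 without sham day 21 replicate 1 and 0.14 without sham day 21 replicate 2, and the mean ranged from 0.71 to 1.04 with 1 library left out. The unamputated digits of the other table sat near the sham day 14 level, but the tables were made separately and no test spans them.

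Cxcr4, the signalling receptor, was at 4.27 to 8.13 CPM in the 8 sham libraries. In SNI digits it was at 7.41, 68.4 and 7.65 CPM at day 7 and 6.17, 6.17 and 14.3 at day 14. One library stands far above the others. The day 7 fold change was 2.20 ± 0.69 (log2, SE; edgeR adjusted p = 0.301). Leaving out replicate 2, which had the high neutrophil marker sum, gave 0.36. In the amputation set Cxcr4 ranged from 2.62 to 6.49 CPM. It was 1 of the 5 members with all amputated above all unamputated libraries at day 14 (10.9%, background 15.9%). It was not called there, and at day 7 the groups overlapped. Ackr3 ranged from 48.2 to 214 CPM in the time course, the top value in sham day 21 replicate 1, and from 49.7 to 72.9 in the amputation set, where the mean fold change was -0.08 ± 0.09 (edgeR adjusted p = 0.583; -0.14 to -0.03 with 1 library left out). At day 21 its SNI minus sham fold change was -0.79 ± 0.41 with that sham library, 0.35 without it and -1.42 without sham replicate 2.

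Cxcl14 was at 156 to 286 CPM in the 3 sham day 14 libraries, and at 351, 274 and 768 in SNI day 14; the groups overlap (log2 fold change 0.97 ± 0.33, edgeR adjusted p = 0.578; 0.40 without SNI day 14 replicate 3). In the amputation set its values ran from 209.9 to 496 CPM with a day 7 fold change of 0.44 ± 0.25 (adjusted p = 0.435; 0.06 without amputated day 7 replicate 1, 0.67 without unamputated day 7 replicate 3). Cxcl16, the membrane-anchored ligand of Cxcr6, was at 19.3 to 27.2 CPM in unamputated and 23.2 to 33.0 in amputated digits, both days pooled. At day 14 its amputated libraries all lay above the unamputated ones, and at day 7 they overlapped. The day 14 log2 fold change was 0.23 ± 0.10 (SE, edgeR adjusted p = 0.182). In both arms its day 14 libraries lay above its day 7 libraries. Of the 6 stromal CXC members at SNI day 14, 6 were positive and 3 separated (Cxcl12, Cxcl16, Cxcr6; background 11.0%), with a median of 0.86 log2. In the amputation mean 5 of 6 were positive, 1 was called higher (background 5.71%) and the median was 0.29.

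**Figure D3:**
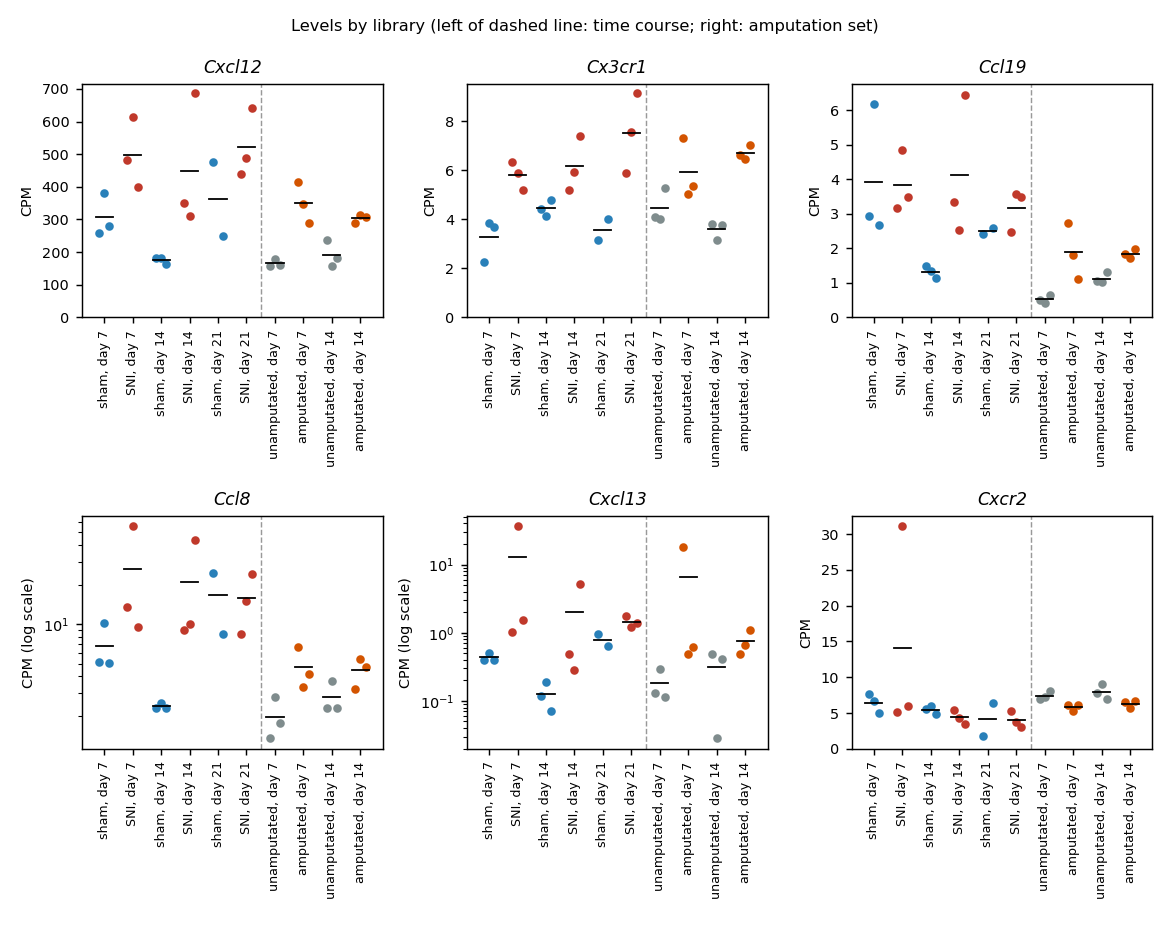
Points are CPM of single libraries and lines are group means for Cxcl12, Cx3cr1, Ccl19, Ccl8, Cxcl13 and Cxcr2; the Ccl8 and Cxcl13 axes are logarithmic. Cxcl12 and Cx3cr1 differ between groups in nearly every library, whereas the high Cxcl13 and Cxcr2 means come from 1 library of a group.

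Cx3cr1, the fractalkine receptor of monocytes and tissue macrophages, was the member with the smallest p in the mean SNI comparison. In sham digits it was at 2.28, 3.85 and 3.69 CPM at day 7, 4.43, 4.14 and 4.79 at day 14 and 3.14 and 4.02 at day 21. In SNI digits it was at 6.35, 5.87 and 5.19 CPM, then 5.17, 5.94 and 7.38, then 5.86, 7.56 and 9.15. The lowest SNI library lay above the highest sham library. The log2 fold change was 0.82 at day 7, 0.47 at day 14 and 1.07 ± 0.28 (SE) at day 21, and 0.79 ± 0.15 in the mean, which edgeR did not call (adjusted p = 0.288; DESeq2 adjusted p = 0.000155) and which ranged from 0.72 to 0.85 with 1 library left out. Macrophage markers (8 of 8 measured) summed to 326 to 538 CPM at SNI day 7 against 289 to 420 in sham, and to 321 to 431 at SNI day 21 against 333 to 611 in sham, overlapping on both days. At day 14 they did not overlap: 323 to 666 in SNI against 187 to 212 in sham.

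Amputation also raised Cx3cr1. Unamputated SNI digits held 4.08, 3.99 and 5.26 CPM at day 7 and 3.81, 3.15 and 3.78 at day 14. Amputated digits held 7.32, 5.03 and 5.36 CPM at day 7 and 6.61, 6.44 and 7.01 at day 14. The day 14 groups are fully apart and the day 7 groups overlap through 1 unamputated library. The gene rose by 0.66 ± 0.13 (log2, SE; edgeR adjusted p = 0.0102) in the mean and by 0.90 ± 0.18 at day 14 (adjusted p = 0.0363), a day 14 call lost without unamputated day 14 replicates 1, 2 or 3, unamputated day 7 replicate 2, or amputated day 14 replicates 2 or 3 (0.82 to 0.95). The macrophage marker sum at day 14 was 218 to 269 CPM in amputated digits and 262 to 283 in unamputated ones. Cx3cl1, its ligand, ranged from 6.21 to 35.1 CPM over the time course.

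Of the XC pair, Xcl1, which draws Xcr1-bearing dendritic cells, was at 0.0233, 0.0954 and 0.0962 CPM in sham day 14 and 0.329, 0.309 and 0.240 in SNI day 14. The groups were apart, but the counts are few. From day 7 to day 14 in sham digits its log2 fold change was -2.66 ± 0.71 (SE; edgeR adjusted p = 1). Xcr1 was at or below 0.386 CPM in every time course library.

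Ccl19 and Ccl21 are ligands of Ccr7, which guides dendritic cells and T cells into lymphatics and lymph nodes. In unamputated SNI digits Ccl19 was at 0.494, 0.432 and 0.636 CPM at day 7 and 1.05, 1.02 and 1.30 at day 14. In amputated digits it was at 2.74, 1.80 and 1.12 CPM at day 7 and 1.85, 1.72 and 1.98 at day 14. Amputated libraries were higher on both days without overlap. Ccl19 rose by 1.29 ± 0.22 (log2, SE; edgeR adjusted p = 0.00616) in the mean, held with each library left out, and by 1.86 ± 0.32 at day 7 (adjusted p = 0.0152), a call lost without unamputated day 7 replicates 1 or 2 or amputated day 7 replicate 1 (1.49 to 2.12). Over the time course Ccl19 was at 2.95, 6.18 and 2.68 CPM in sham day 7, 1.49, 1.35 and 1.13 in sham day 14, and 3.36, 2.55 and 6.46 in SNI day 14. Its day 14 SNI minus sham fold change was 1.64 ± 0.39 (adjusted p = 0.555) and its sham day 14 minus day 7 fold change -1.57 ± 0.39 (adjusted p = 1), with the same sham day 14 libraries in both. At day 21 sham and SNI overlapped.

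Ccl21 is encoded by near-identical gene copies on chromosome 4, which limits what a count for any 1 copy means. The stretches below, from RefSeq promoters (GRCm38.p6), show how alike the copies are upstream of the start. They are chr4:42774042-42774141 on the minus strand for Ccl21a, and on the plus strand chr4:42611972-42612071 for Gm10591, chr4:42114636-42114735 for Gm13304 and chr4:41903462-41903561 for Gm21541. Capitals mark the 2 positions at which the copies differ.
Ccl21a: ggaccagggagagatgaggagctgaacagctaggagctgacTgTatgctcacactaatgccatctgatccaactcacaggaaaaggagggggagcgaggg
Gm10591: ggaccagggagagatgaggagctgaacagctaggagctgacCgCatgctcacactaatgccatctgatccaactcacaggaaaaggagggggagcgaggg
Gm13304: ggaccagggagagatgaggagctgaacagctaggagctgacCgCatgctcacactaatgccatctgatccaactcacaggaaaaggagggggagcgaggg
Gm21541: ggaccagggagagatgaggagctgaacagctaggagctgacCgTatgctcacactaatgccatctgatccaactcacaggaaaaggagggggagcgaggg
Over the promoter, Ccl21a was 99.2% identical to Gm10591 over 249 bases, and Gm10591 and Gm13304 did not differ in 250. In the GENCODE M21 transcripts used, every 50-base stretch of Ccl21b also occurs in Gm10591, Gm13304 and Gm21541, and 70.5% and 71.6% of those of Ccl21a occur in Gm13304 and Gm21541.

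The time course held Ccl21a and Ccl21b at 0 counts in all 17 libraries. Ccl21c held 0 in 9 libraries and 175 to 676 in the others. Gm10591, Gm13304 and Gm21541 alternated in the same way, with 0 in 11, 11 and 10 libraries. The sum of the copies was never 0 and ran from 224 to 1549 counts, so the copy that holds the counts switches between libraries. Summed, a reading chosen after the values were seen, the copies were at 9.58 to 14.2 CPM in sham day 7, 5.39 to 9.23 in sham day 14 and 8.16 to 10.2 in sham day 21. They were at 16.6 to 19.1, 13.4 to 18.5 and 15.4 to 37.8 CPM in SNI digits of those days, above sham on each day. The summed log2 fold change was 0.99 ± 0.19 (SE; edgeR adjusted p = 0.271) in the mean and was not called. A further gene model of the cluster, Gm1987, with counts in every library, was at 25.9 to 65.2 CPM in sham and 54.4 to 129 in SNI libraries (mean fold change 0.75 ± 0.16, adjusted p = 0.306). Gm1987 held 1079 to 5288 counts and is not part of the sum. Its sequence was not compared with the copies, so whether the sum misses Ccl21 counts was not tested.

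The amputation table holds counts under Ccl21a in every library. In unamputated digits Ccl21a was at 13.1, 23.2 and 11.6 CPM at day 7 and 18.1, 33.5 and 24.9 at day 14. In amputated digits it was at 45.2, 46.0 and 44.4 CPM at day 7 and 29.3, 45.8 and 40.1 at day 14. The day 7 groups are far apart and the day 14 groups overlap. Ccl21a rose by 1.04 ± 0.20 (log2, SE; edgeR adjusted p = 0.011) in the mean, held with each library left out, and by 1.5 ± 0.28 at day 7 (adjusted p = 0.0284), lost without unamputated day 14 replicate 3, unamputated day 7 replicates 1 or 3, or amputated day 7 replicates 1, 2 or 3 (1.32 to 1.87), and with no low-count filter (adjusted p = 0.0914). With the copies summed, the rise was 1.11 ± 0.20 (adjusted p = 0.00975) in the mean and 1.60 ± 0.29 (adjusted p = 0.0251) at day 7. Ccl21b was at 0 in all 3 unamputated day 7 libraries and 127 to 240 counts in the amputated ones, which cannot be separated from its copies.

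Within each day, markers of lymphatic endothelium, a known source of Ccl21, were lower in the group with the higher mean Ccl21 values. Between days the values did not always move in opposite directions. Lyve1, Prox1 and Flt4 (3 of 3 measured) summed to 31.6 to 50.8 CPM in amputated against 52.4 to 83.2 in unamputated digits at day 7, and to 25.8 to 38.0 against 42.7 to 56.5 at day 14. The sums were 17.6 to 24.5, 27.2 to 32 and 19.6 to 29.3 CPM in SNI digits at days 7, 14 and 21, against 32.1 to 57.5, 33.7 to 36.8 and 31 to 40.2 in sham. Ccr7 stayed between 0.216 and 0.925 CPM in the amputation set and between 0.243 and 1.57 in the time course, with overlapping groups at each day. Their part in the Ccl21 values was not tested.

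**Figure D4:**
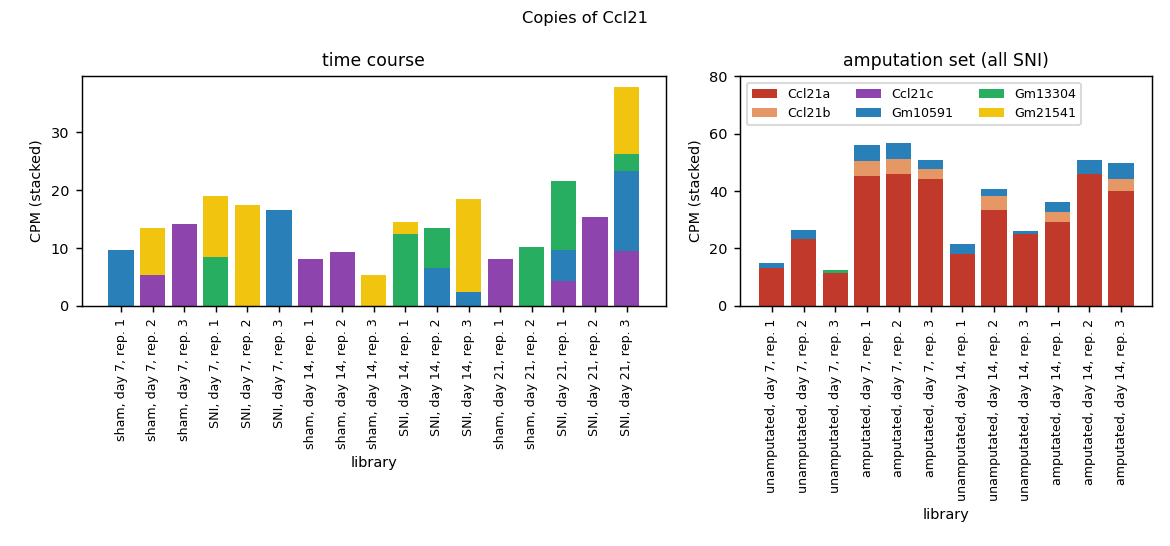
Stacked bars give CPM of each Ccl21 copy in every library, without Gm1987, time course left and amputation set right. In the time course the colour of the bar switches between libraries of 1 group while its height stays above 5 CPM; in the amputation set Ccl21a fills most of each bar.

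Cxcl13, which places B cells through Cxcr5, was at 0.402, 0.509 and 0.398 CPM in sham day 7, 0.116, 0.191 and 0.0721 in sham day 14 and 0.942 and 0.628 in sham day 21. In SNI digits it was at 1.04, 36.4 and 1.55 CPM at day 7, 0.494, 0.283 and 5.19 at day 14 and 1.75, 1.21 and 1.39 at day 21. Every SNI library exceeded the sham libraries of its day, and SNI day 7 replicate 2 dominates the mean. The mean log2 fold change was 3.23 ± 0.80 (SE; edgeR adjusted p = 0.337), 2.14 to 3.42 with 1 library left out, and the day 7 value 4.88 ± 1.35. Without SNI day 7 replicate 2 they were 2.14 and 1.60. In the amputation set a single library again stood out, at 18.3 CPM in amputated day 7 replicate 1 against 0.483 to 1.10 in the other amputated and 0.0284 to 0.492 in the unamputated libraries. Cxcr5 did not pass the low-count limit in either table.

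Monocyte-attracting ligands were lowest in sham day 14. Ccl8 was at 5.14, 10.2 and 5.10 CPM in sham day 7, 2.31, 2.52 and 2.28 in sham day 14 and 24.7 and 8.45 in sham day 21. In SNI digits it was at 13.5, 55.7 and 9.49 CPM at day 7, 8.99, 9.98 and 43.5 at day 14 and 8.40, 15.0 and 24.1 at day 21. The day 14 groups are separated by a wide gap, and days 7 and 21 overlap. The log2 fold change at day 14 was 3.13 ± 0.79 (SE; edgeR adjusted p = 0.555; 2.00 to 3.49 with 1 library left out, lowest without SNI day 14 replicate 3) and in the mean 1.67 ± 0.46 (adjusted p = 0.337). Amputation raised Ccl8, from 1.35, 2.78 and 1.76 CPM at day 7 and 2.31, 3.72 and 2.31 at day 14 to 6.65, 3.33 and 4.13 and to 3.20, 5.45 and 4.74. The mean fold change was 0.97 ± 0.24 (adjusted p = 0.0241), a call lost without unamputated day 14 replicates 1 or 3, unamputated day 7 replicate 1, amputated day 14 replicate 2 or amputated day 7 replicate 1 (0.80 to 1.14).

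Ccl12 was at 0.0466, 0.0954 and 0.0962 CPM in sham day 14 and 0.214, 0.669 and 1.94 in SNI day 14 (3.51 ± 0.89, log2, SE; edgeR adjusted p = 0.555). Ccl2 was at 1.03 to 1.11 CPM in sham day 14 and 2.72, 3.16 and 12.4 in SNI day 14. Ccr2, the receptor of monocytes, was at 5.78, 5.34 and 7.74 CPM in sham day 14 and 9.37, 14.8 and 35.4 in SNI day 14 (1.66 ± 0.71, adjusted p = 0.578; 0.94 without SNI replicate 3). In each of these the lowest SNI library exceeds the highest sham library, and SNI replicate 3 is the highest. All 5 members of the monocyte-attracting list were positive and separated at day 14 (background 11.0%), with a median of 3.10 log2 and none called. In the amputation mean 4 of 5 were positive with a median of 0.44, and Ccl8 was the 1 called (background 5.71% higher). The day 14 macrophage marker sums given with Cx3cr1 differ in the same direction between sham and SNI, and their part was not tested.

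The other inflammatory CC members were also low in sham digits at day 14. Ccl9, a Ccr1 ligand also made by osteoclasts, was at 7.85, 7.55 and 8.32 CPM in sham day 14 and 29.1, 23.5 and 113 in SNI day 14. The groups are far apart (2.80 ± 0.73, log2, SE; edgeR adjusted p = 0.555; 1.73 to 3.16 with 1 library left out, lowest without SNI replicate 3). Ccr1 was at 2.25 to 2.65 CPM in sham day 14 and 9.90, 4.76 and 40.4 in SNI day 14. Ccl6 was at 19.8, 26.9 and 25.5 CPM and 27.4, 50 and 98.8 (1.29 ± 0.71, adjusted p = 0.578; 0.69 without SNI replicate 3). Of the list's 10 members, 10 were positive and 7 separated at day 14 (background 11.0%), with a median of 1.95. In the amputation mean 5 of 7 were positive, with a median of 0.20 and none called (background 11.8%). Osteoclast markers (Acp5, Ctsk, Dcstamp, Ocstamp; 4 of 4 measured) summed to 166 to 230 CPM in sham day 14 and 228 to 2429 in SNI day 14, overlapping narrowly; their part was not tested.

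Ccl5 was at 0.380, 3.41 and 0.798 CPM in SNI day 7 against 0.189 to 0.387 in sham day 7, which overlap (2.45 ± 0.77, log2, SE; edgeR adjusted p = 0.301; 1.12 without SNI day 7 replicate 2). Ccl11, the eotaxin bound by Ccr3, was at 8.27 to 8.70 CPM in sham day 14 and 9.34, 14.8 and 19.1 in SNI day 14. Ccl24, a second Ccr3 ligand, was at 11.4 and 2.32 CPM in the sham day 21 libraries, and its day 21 minus day 7 fold change of 1.52 in sham digits was -0.03 without replicate 1. Ccl4 and Cxcl3 were the members just inside the low-count limit of the time course, with top counts of 16 and 30, and Ccl1 and Cxcr5, with 11 and 13, were just outside. In the amputation table Ccl12 (top count 19) was just inside and Ccr3, Cxcl2 and Cxcr5 (127, 21 and 20) just outside. Members near the limit pass through their highest libraries.

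Neutrophil-attracting ligands varied widely between libraries of 1 group. Cxcl1, Cxcl2, Cxcl3 and Cxcl5 act on Cxcr2, and several of their promoters are known targets of NF-kB. The windows below, RefSeq promoters of GRCm38.p6, show the match to the NF-kB consensus, in capitals, in 3 of these genes and in the interferon-inducible Cxcl10. They are chr5:90891154-90891203 for Cxcl1, chr5:90903782-90903831 for Cxcl2 and chr5:90786008-90786057 for Cxcl3, on the plus strand, and chr5:92349019-92349068 on the minus strand for Cxcl10.
Cxcl1: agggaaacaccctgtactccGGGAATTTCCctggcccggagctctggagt
Cxcl2: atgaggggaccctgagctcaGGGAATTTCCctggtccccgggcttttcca
Cxcl3: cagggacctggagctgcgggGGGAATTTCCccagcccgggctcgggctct
Cxcl10: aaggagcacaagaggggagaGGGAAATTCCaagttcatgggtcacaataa
The consensus, whose match may overlap other motifs, was found on either strand of the 250 bases before the start, in 9 of the 42 members with a RefSeq promoter (21.4%) and in 7.25% of all 32851 promoters. The other 5 were Ackr2, Ccl20, Ccl9, Ccr1 and Ccr3. TTTC, 2 bases of any kind and TTTC again, the spacing of an interferon-response element, was on either strand in 3 members (7.14%, against 2.98%): Ccl19, Cxcl10 and Cxcl14. A match describes the letters and is no evidence of binding.

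Cxcl1 was at 0.116, 0.439 and 0.361 CPM in sham day 14 and 2.35, 0.772 and 8.53 in SNI day 14, and at 0.977 and 0.646 in sham day 21 and 0.438, 9.15 and 0.757 in SNI day 21. Day 14 is separated and day 21 is not. The day 21 fold change of 2.09 (log2) was -0.43 without SNI day 21 replicate 2. Cxcl5 was at 0.419, 0.553 and 0.289 CPM in sham day 14 and 5.88, 0.463 and 19.3 in SNI day 14, which overlap. Cxcl2 was at 0, 0 and 0.0240 CPM and Cxcl3 at 0 in the sham day 14 libraries. In SNI day 14 they were at 0.445, 0 and 1.33 CPM and at 0.247, 0 and 0.655. At day 21 Cxcl3 went the other way, with its SNI libraries below its sham libraries. Its day 21 fold change was -3.64 ± 1.58 (log2, SE), was not called and rests on few counts. It was -4.48 to -1.97 with 1 library left out. Of the 5 members of the list, 4 were positive and 1 separated at day 14 (background 11.0%). Neutrophil markers (7 of 8 in the table) summed to 7.78 to 9.93 CPM in sham day 14, 43.3 to 222 in SNI day 14 and 23.4 to 33.5 in sham day 7; their part was not tested.

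Cxcr2, the receptor of these ligands on neutrophils, was lower in amputated than in unamputated SNI digits. In the time course it was at 4.81 to 5.99 CPM in sham day 14, 3.51 to 5.38 in SNI day 14, and 5.15, 31.1 and 5.94 in SNI day 7, the high value again in replicate 2. In the amputation set it was at 7.00, 7.28 and 8.06 CPM in unamputated digits at day 7 and 7.78, 9.00 and 6.93 at day 14. Amputated digits held 6.11, 5.28 and 6.06 CPM at day 7 and 6.50, 5.69 and 6.65 at day 14. All amputated libraries lay below all unamputated ones. The mean fold change was -0.34 ± 0.10 (log2, SE; edgeR adjusted p = 0.045), and this call was lost with any 1 of the 12 libraries left out (adjusted p from 0.0533 to 0.105) or with no low-count filter (adjusted p = 0.0783). Neutrophil markers (8 of 8) summed to 10.6 to 32.9 CPM in unamputated and 12.5 to 89.8 in amputated digits at day 7, overlapping. At day 14 they summed to 4.67 to 39.6 and 8.86 to 67.6 CPM, also overlapping. Keratinocyte sums, given above, were lower in amputated digits on both days without overlap. In the time course Cxcr2 overlapped between sham and SNI at day 14, while the neutrophil sums were higher in SNI. The part of these cells was not tested.

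The interferon-inducible ligands Cxcl9 and Cxcl10 bind Cxcr3 on T cells. Cxcl9 was at 0.179, 0.815 and 0.503 CPM in sham day 7 and 0.481, 19.7 and 2.95 in SNI day 7. The groups overlap, and replicate 2 is the highest. The log2 fold change was 3.93 ± 1.10 (SE; edgeR adjusted p = 0.301) and 1.79 to 4.49 with 1 library left out, lowest without replicate 2. Cxcl10 was between 0.0698 and 2.52 CPM in the time course. Cxcr3 was at 0.191 to 0.313 CPM in sham day 14 and 0.489 to 1.00 in SNI day 14, which do not overlap (1.5 ± 0.60, adjusted p = 0.578). T cell markers (6 of 7 in the table) summed to 4.57 to 5.23 CPM in sham day 14 and 7.08 to 11.1 in SNI day 14; their part was not tested.

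Of the 12 skin and mucosal homing members, 12 were positive at SNI day 14 and 0 were separated from sham (background 11.0%), with a median of 0.72 log2. Ccl27a, made by keratinocytes for Ccr10-bearing T cells, was at 4.05 to 8.07 CPM in sham day 14 and 6.01 to 14.3 in SNI day 14. Sham day 21 replicate 1 held 35.1 CPM, against 5.28 in replicate 2. Its copy Ccl27b was 0 in 10 of 17 time course and 6 of 12 amputation libraries, and 61.4% of its 50-base stretches occur in Ccl27a, so the 2 counts are uncertain singly. Ccl17, a Ccr4 ligand, was at 15.9 CPM in 1 unamputated day 7 library and 0.243 and 0.260 in the others. None of the 10 members of this list in the amputation table was called in the mean (background 11.8%).

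Of the 4 atypical receptors, 3 were positive and 1, Ackr1, was separated at SNI day 14 (background 11.0%), with a median of 0.43 log2. Ackr1, which carries chemokines across venular endothelium, was at 6.55, 6.88 and 4.51 CPM in unamputated and 11.0, 8.23 and 9.84 in amputated day 7 digits. These do not overlap, and the gene was not called (0.70 ± 0.20, log2, SE; edgeR adjusted p = 0.112). At day 14 it was at 5.45 to 7.41 and 5.28 to 7.16 CPM, which overlap. Ackr2, a scavenger of inflammatory CC chemokines, stayed between 5.35 and 10.6 CPM in the time course. Ackr4, which clears Ccl19, Ccl21 and Ccl25, was at 25.7 to 30.9 CPM in unamputated and 34.3 to 42.1 in amputated day 7 digits, and was separated at SNI day 7 as well, 36.2 to 46.9 against 30.1 to 34.1.

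**Figure D5:**
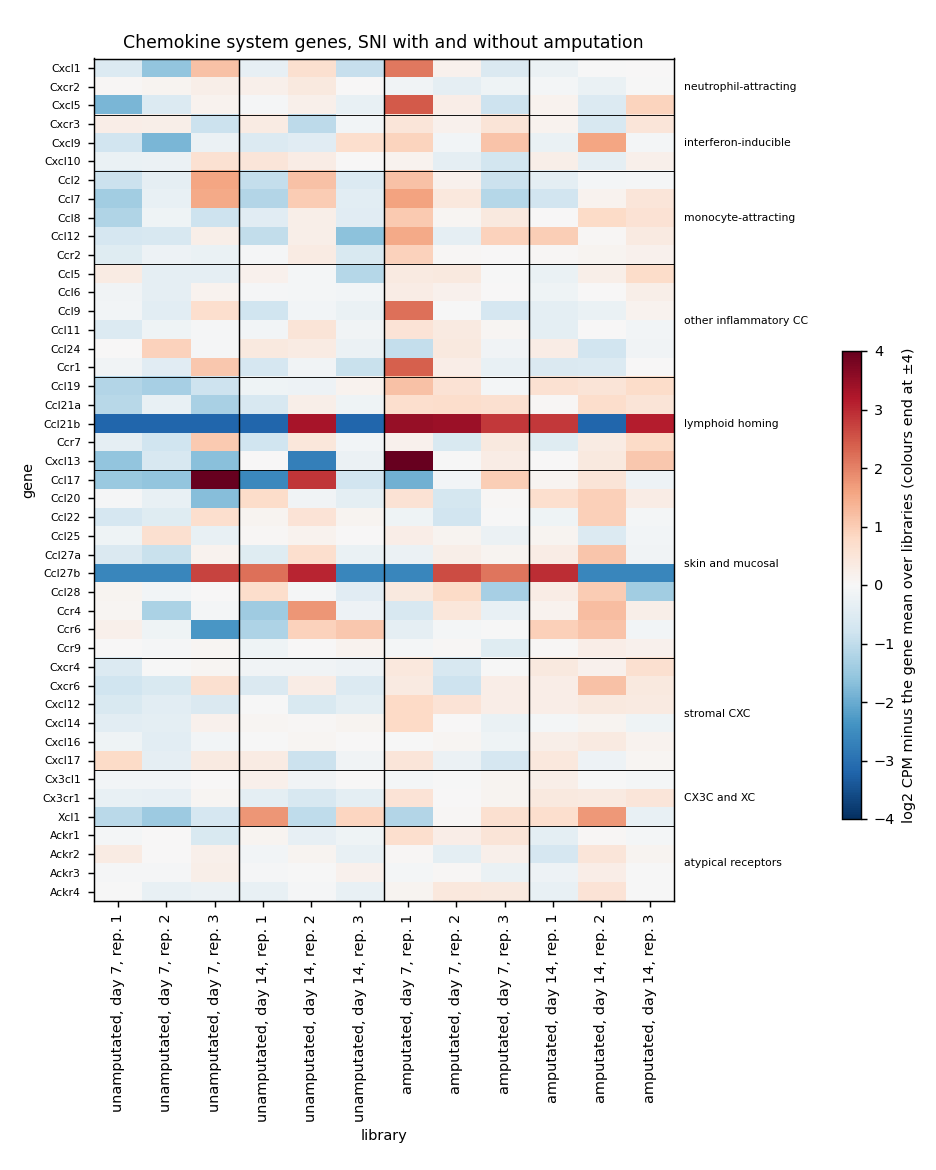
Rows are members of the amputation table (45 of 46 shown), columns its 12 SNI libraries, and colour is log2 CPM minus the gene's mean over libraries. Ccl19, Ccl21a and Cxcl12 are bluer in the unamputated day 7 libraries, and amputated day 7 replicate 1 is darkest for Cxcl1, Cxcl5, Ccl9, Ccr1 and Cxcl13.

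Genes that carry or damp chemokine receptor signals formed a list of 43 tested in the time course and 45 in the amputation table. edgeR called 0 of 43 in each SNI contrast (background 0.0%). At an unadjusted p under 0.05 it counted 11 at day 7 (background 13.6%) and 2 at day 14 (5.93%). It counted 1 at day 21 (2.2%) and 12 in the mean (14.0%). DESeq2 called 0, 0, 0 and 1, against 0.336%, 0.417%, 0.0746% and 1.01% of all genes. The unadjusted edgeR counts moved with single libraries. The share of all genes in those fits was not counted, so a shift in all genes cannot be told apart. The day 7 count was 0 without SNI day 7 replicate 2, 4 and 5 without sham day 7 replicate 3 and 1, 18 without SNI day 7 replicate 1, and 22 and 19 without sham day 21 replicate 1 and 2. The day 14 count was 0 without any 1 sham day 14 library or SNI day 14 replicate 3, 1 without sham day 7 replicate 1 or 3 or SNI day 21 replicate 2, 4 without SNI day 14 replicate 1 or SNI day 7 replicate 3, 5 without either sham day 21 library and 10 without SNI day 7 replicate 2. The day 21 count was 0 and 9 without sham day 21 replicate 1 and 2, and the mean 7 without SNI day 7 replicate 2 and 19 without sham day 21 replicate 1. In the amputation mean 4 of 45 were called, all higher (background 5.71%). The G protein subunit Gnb2 rose by 0.24 ± 0.05 (log2, SE; edgeR adjusted p = 0.00989) and the signal terminator Rgs16 by 1.00 ± 0.19 (adjusted p = 0.0101), both held with each library left out. The Rac activator Prex1 rose by 0.35 ± 0.09 (adjusted p = 0.0246), lost without unamputated day 14 replicates 1 or 3, unamputated day 7 replicates 1 or 2, or amputated day 14 replicate 3, each of which left 2 calls on the list. The subunit Gnai2 rose by 0.22 ± 0.07 (adjusted p = 0.0457), lost without any library but unamputated day 7 replicate 3 and amputated day 7 replicate 3, and with no low-count filter.

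By day, Rgs16 rose by 1.53 ± 0.28 (log2, SE; edgeR adjusted p = 0.0197) at day 7, lost without unamputated day 7 replicates 1 or 3 or amputated day 7 replicates 1 or 2. The receptor kinase Grk3 rose by 0.68 ± 0.15 at day 7 (adjusted p = 0.0464), lost without any library but unamputated day 14 replicate 2 and amputated day 14 replicate 2. From day 7 to day 14 in amputated digits Grk3 fell by 0.79 ± 0.15 (adjusted p = 0.0315), lost without unamputated day 14 replicates 1 or 3, amputated day 14 replicates 1, 2 or 3, or amputated day 7 replicates 2 or 3. At day 14 Gnb2 rose by 0.31 ± 0.07 (adjusted p = 0.0399), lost without unamputated day 14 replicates 1, 2 or 3, unamputated day 7 replicates 1 or 2, amputated day 14 replicates 2 or 3, or amputated day 7 replicate 2, and with no low-count filter.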

How the data were processed

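The authors deposited 2 tables of raw counts per gene, 1 of the time course (17 libraries, by symbol) and 1 of the amputation set (12 libraries, by Ensembl ID). Per the submitters' processing notes the genome was GRCm39. RNA was poly(A)-selected with a strand-specific kit per the labels' protocols, with aligner and counter not given in the sources used here. GENCODE M21 gave symbols for 55141 of the IDs (99.4%) and exon lengths. RefSeq promoter sequences are of GRCm38.p6, so no coordinates were joined to the counts.

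Each table was fitted separately with edgeR 4.0.16 in R 4.3.3: filterByExpr (minimum count 10, total 15), TMM scaling, 1 mean per group and robust quasi-likelihood tests, with Benjamini-Hochberg adjustment over 16084 and 17475 genes. All groups of a table shared the spread, whose common coefficient of biological variation was 0.393 and 0.17. CPM uses TMM-scaled library sizes, and 1 count was worth 0.0165 to 0.0349 CPM, which limits low members. Replicate numbers were not used to pair libraries in these fits, since same-numbered libraries did not deviate together on average. The script was tested on simulated data. The alternatives were RLE size factors, no filter, 10 counts in 3 libraries, DESeq2 1.42.0, a replicate block, leaving out each library, and leaving out both libraries with a TMM factor under 0.8.

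The members and lists were chosen with earlier results of these data known. Genes named with fold changes are the called ones, or the 5 with the smallest p where fewer than 5 were called, and the most abundant of each role. Cxcl13, Cxcr3 and the day-wise values of Cxcl12, Cx3cr1, Ccl8, Ccl6, Ccr2 and Cxcl14, and genes given only as CPM, were chosen after their values were seen. The values of 1 receptor, included in the counts of members, and of 1 marker list are not reported here.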

Additional observations from a re-analysis of the deposited data

How the results depend on the processing

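RLE size factors and the limit of 10 counts in 3 libraries kept the direction and call of all 88 tested gene and comparison pairs. Without a low-count filter 4 of 88 lost their call. DESeq2 gave calls to 11 of 88, and its counts of called members were 7 in the mean SNI contrast (1.01% of all genes), 2 at day 7 (0.336%), 11 at day 14 (0.417%), 1 for SNI day 21 against day 7 (0.056%), 6 for amputation at day 7 (4.16%), and 1 each for the amputation by day interaction (0.103%) and unamputated day 14 against day 7 (0.853%); the cause was not tested. With 1 library left out, called members ranged from 0 to 9 for the SNI by day interaction and from 0 to 14 for sham day 21 against day 7 (highest in fits that called 20.6% and 50.7% of all genes), from 1 to 3 for amputation at day 7 and from 0 to 2 at day 14. Leaving out the pair of time course libraries with a TMM factor under 0.8 reversed 6 of 48 pairs. Ackr3 was then 0.35 for SNI at day 21 and -0.05 for sham day 21 against day 7, and Ccl24 was -0.03 there. For SNI day 14 against day 7 Cxcr4 was 0.19 and Cxcl13 0.57, and Cxcl13 was 0.14 for day 21 against day 7. With 1 library left out, these ranged from -1.42 to 0.35, -0.05 to 1.72, -0.03 to 2.25, -2.17 to 0.19, -5.03 to 0.57 and -3.71 to 0.14, in that order, reversed by sham day 21 replicate 1 or SNI day 7 replicate 2. Cxcl1 at SNI day 21 ranged from -0.43 (without its replicate 2) to 2.62, and Cxcl13 in amputated day 14 against day 7 from -3.67 to 0.44 (without amputated day 7 replicate 1). Summing the copies of Ccl21 and Ccl27 was chosen after seeing the data and changed no call among 83 pairs.

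Same-numbered libraries did not deviate together on average: the mean correlation of their deviations was 0.03 in the time course (-0.79 to 0.77) and -0.02 in the amputation set (-0.20 to 0.14). This cannot show whether libraries are paired under another numbering. With the replicate block, 0 members were called for amputation at day 14, 3 at day 7 and 5 in the mean. The share of all genes called is not given for this fit, nor for the amputation fits with 1 library left out. Whether a change in calls is particular to the members cannot be read from these counts. With the block, 9 of 88 pairs lost their call. At day 14 these were Cxcl12, Cx3cr1 and Gnb2, and at day 7 Rgs16 and Grk3. The others were Grk3 between days in amputated digits, and Cxcr2, Gnai2 and Prex1 in the mean. Low members rest on few counts, and the 2 sham day 21 libraries limit every day 21 value.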
